A study of Mus musculus with 10 samples.

Results

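Non-classical MHC class I molecules (also called class Ib) were examined in colonic intestinal epithelial cells (IECs) of mice with and without RhoB, a small GTPase. The 10 genes were taken by symbol, with earlier results of these data known. They were H2-T3, H2-T22 and H2-T23 of the T region, H2-Q1, H2-Q2, H2-Q4 and H2-Q7 of the Q region, H2-M3 of the M region, and Cd1d1 and Mr1 outside the MHC. All 10 had a row among the 55487 genes of the deposited table, and 9 of them passed the filter on low values (a mean TPM of at least 1 over all libraries), which 12870 genes passed. Total RNA of colonic IECs was sequenced from 5 wild type (WT) and 5 RhoB-/- mice of the C57BL/6J strain, with a single library per mouse. No treatment or age is given in the labels, and the methods give only a general age range for the mice. The RhoB-/- mice lack the gene in the whole body, so the epithelium was not the only tissue affected, and the methods name different suppliers for the WT and the RhoB-/- mice, so that genotype and source cannot be told apart. The values are TPM, a read density per transcript length scaled towards a common total in each library. The deposited columns summed to 971419 to 993054 in WT and 987946 to 993229 in RhoB-/- libraries. TPM allows levels of different genes to be compared but keeps no sequencing depth.

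Non-classical class I molecules share the fold of the classical H2-K and H2-D molecules, and most of them need beta-2-microglobulin (B2m) at the cell surface, but they vary little between individuals and are read by dedicated receptors of innate-like lymphocytes. H2-T3 encodes the thymus leukaemia antigen, a ligand of CD8 alpha homodimers known from intestinal epithelium. H2-T23 encodes Qa-1, which displays leader peptides of classical class I heavy chains to the CD94/NKG2 receptors, and H2-T22 is a ligand of gamma delta T cell receptors. H2-Q7 encodes Qa-2, a molecule tethered to the membrane by a lipid anchor. H2-M3 presents N-formylated peptides, CD1d presents lipids to NKT cells, and MR1 presents vitamin B metabolites to MAIT cells.

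The promoters of classical class I genes carry a kB site, an interferon-stimulated response element (ISRE) and the X and Y boxes through which RFX, NF-Y and the transactivator NLRC5 act. RefSeq promoter sequences (GRCm38.p6, 250 bases before to 50 bases after the start) were matched by symbol for 8 of the 10 genes, all but H2-Q1 and Cd1d1. The stretches below show exact matches to letters of these elements in genes whose RNA rose and in H2-M3, whose RNA did not differ detectably. The sets of matches differed among the genes that rose, and whether they bear on the RNA levels was not tested. Each is written 5′ to 3′ on the strand of its gene and stops before the start that RefSeq or GENCODE annotates. For H2-T3 and H2-T23 only the 30 bases around a single match are shown, since that match lies inside the gene as GENCODE draws it. Capitals mark matches on either strand to TTTCACTT (the core of the interferon consensus sequence), TTCNNTTTC (an ISRE), GGGATTCCC (kB), TGATGAC (part of the X box) and ATTGG (an inverted CCAAT, the core of the Y box).
H2-Q4, chr17:35379434-35379573, plus strand: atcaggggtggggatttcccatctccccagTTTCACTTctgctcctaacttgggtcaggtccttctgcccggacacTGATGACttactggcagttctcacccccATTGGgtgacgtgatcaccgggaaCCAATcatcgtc
H2-Q7, chr17:35439012-35439151, plus strand: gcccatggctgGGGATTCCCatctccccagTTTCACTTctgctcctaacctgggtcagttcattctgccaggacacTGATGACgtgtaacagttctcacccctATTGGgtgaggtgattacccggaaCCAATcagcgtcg
H2-T22, chr17:36042824-36042963, minus strand: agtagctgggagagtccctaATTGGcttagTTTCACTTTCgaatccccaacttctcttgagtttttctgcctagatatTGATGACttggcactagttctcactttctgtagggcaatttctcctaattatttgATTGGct
H2-M3, chr17:37270103-37270219, plus strand: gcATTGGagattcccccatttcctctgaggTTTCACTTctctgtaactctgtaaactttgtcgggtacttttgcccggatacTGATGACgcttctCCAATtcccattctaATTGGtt
H2-T3, chr17:36190259-36190288, minus strand: cagaactatagTTTCACTTtttgctctctg
H2-T23, chr17:36032805-36032834, minus strand: tcctactgctTTCTCTTTCataaagacaca
H2-Q2, chr17:35342102-35342241, plus strand: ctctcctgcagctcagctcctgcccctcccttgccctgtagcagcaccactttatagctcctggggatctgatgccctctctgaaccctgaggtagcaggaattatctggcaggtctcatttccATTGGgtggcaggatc
H2-K1 (classical, for comparison), chr17:34000348-34000467, minus strand: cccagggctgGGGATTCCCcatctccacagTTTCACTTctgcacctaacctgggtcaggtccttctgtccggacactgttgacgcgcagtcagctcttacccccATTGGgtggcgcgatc

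TTTCACTT was found in 5 of the 8 promoters (H2-T3, H2-T22, H2-Q4, H2-Q7 and H2-M3), against 1.6% of all 32851 promoters in the reference. TTCNNTTTC was found in H2-T22 and H2-T23, against 8.56% of all promoters, and in H2-T22 it overlaps the TTTCACTT match. TGATGAC was found in H2-T22, H2-Q4, H2-Q7 and H2-M3 (3.23% of all promoters). GGGATTCCC was found in H2-Q7 (0.353% of all promoters) and also in H2-K1, H2-D1 and H2-Q6. ATTGG, a short motif found in 37.4% of all promoters, was present in 6 of the 8, all but H2-T3 and Mr1. H2-Q2 held ATTGG alone, and Mr1 held none of the 5 motifs. For H2-T3, H2-T22, H2-T23, H2-Q2 and H2-M3 the RefSeq start lies inside the gene as GENCODE draws it, though only slightly in H2-T22 and H2-M3. Less sequence before the GENCODE start was therefore searched in these genes. For H2-D1, used for comparison, the whole window lies inside the GENCODE gene. A match describes letters in this window only, and the motifs were chosen after the sequences had been seen. Only exact letters were matched, so an element spelled with other letters was not counted. The classical gene H2-K1 itself had no match to TTCNNTTTC or TGATGAC.

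**Figure D1:**
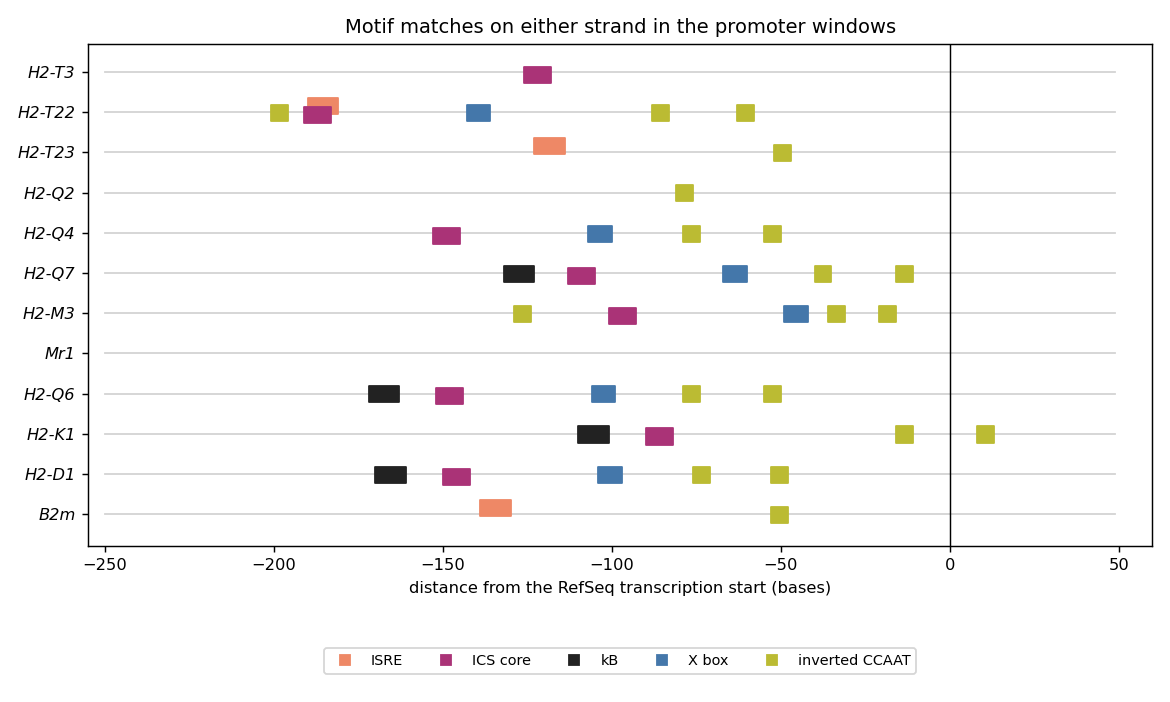
Position of motif matches on either strand (coloured boxes) in bases from the RefSeq transcription start, for the 8 matched genes and, for comparison, H2-Q6, H2-K1, H2-D1 and B2m; grey lines span the window searched. H2-M3, whose RNA level did not differ detectably between the genotypes, carries the same TTTCACTT, TGATGAC and ATTGG elements as H2-Q4 and H2-Q7. It lacks the GGGATTCCC match of H2-Q7, whereas H2-Q2 holds only ATTGG and Mr1 none.

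Across the libraries the 2 groups had similar numbers of genes above 0 TPM (20394 to 21344 in WT and 20261 to 20594 in RhoB-/-), and mitochondrial genes took 17.5% to 26.5% of TPM in WT and 10.32% to 22.4% in RhoB-/- libraries. The targeted gene Rhob lay between 170.5 and 388.7 TPM in WT libraries and between 0.09 and 0.57 TPM in RhoB-/- replicates 1 to 4, while the library labelled RhoB-/- replicate 5 had 110.9 TPM, against its label, so results are given with and without it. The summed TPM of 8 epithelial markers was 9845 to 11137 in WT and 9705 to 15520 in RhoB-/- libraries, with none of the 8 at 0. Genes were called at an adjusted p below 0.05 (limma with Benjamini-Hochberg adjustment over all tested genes). By this rule 995 tested genes (7.73%) were higher and 1734 (13.5%) lower in RhoB-/- IECs. Centring each library on the median of its deviations turned this into 2010 higher and 1645 lower, and rescaling without mitochondrial genes into 1131 higher and 3536 lower.

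Of the 9 genes tested, 7 were higher in RhoB-/- IECs, Cd1d1 was lower and H2-M3 was not called. The 7 were the T-region and Q-region genes, against 7.73% of tested genes called higher. In each of them every RhoB-/- library lay above every WT library, a separation seen in 5.97% of tested genes. With the cutoffs of the study (fold change over 1.5 at p below 0.05, not adjusted) the same 7 were higher, as were 6.37% of tested genes. The median log2 fold change of the 9 genes was 1.28, and that of all tested genes was -0.13. All log2 fold changes here were taken on log2(TPM + 1), where the pseudocount pulls genes of low TPM towards 0. In RNA of bulk cells, a change in the share of a cell type and a change in the RNA per cell cannot be told apart.

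**Figure D2:**
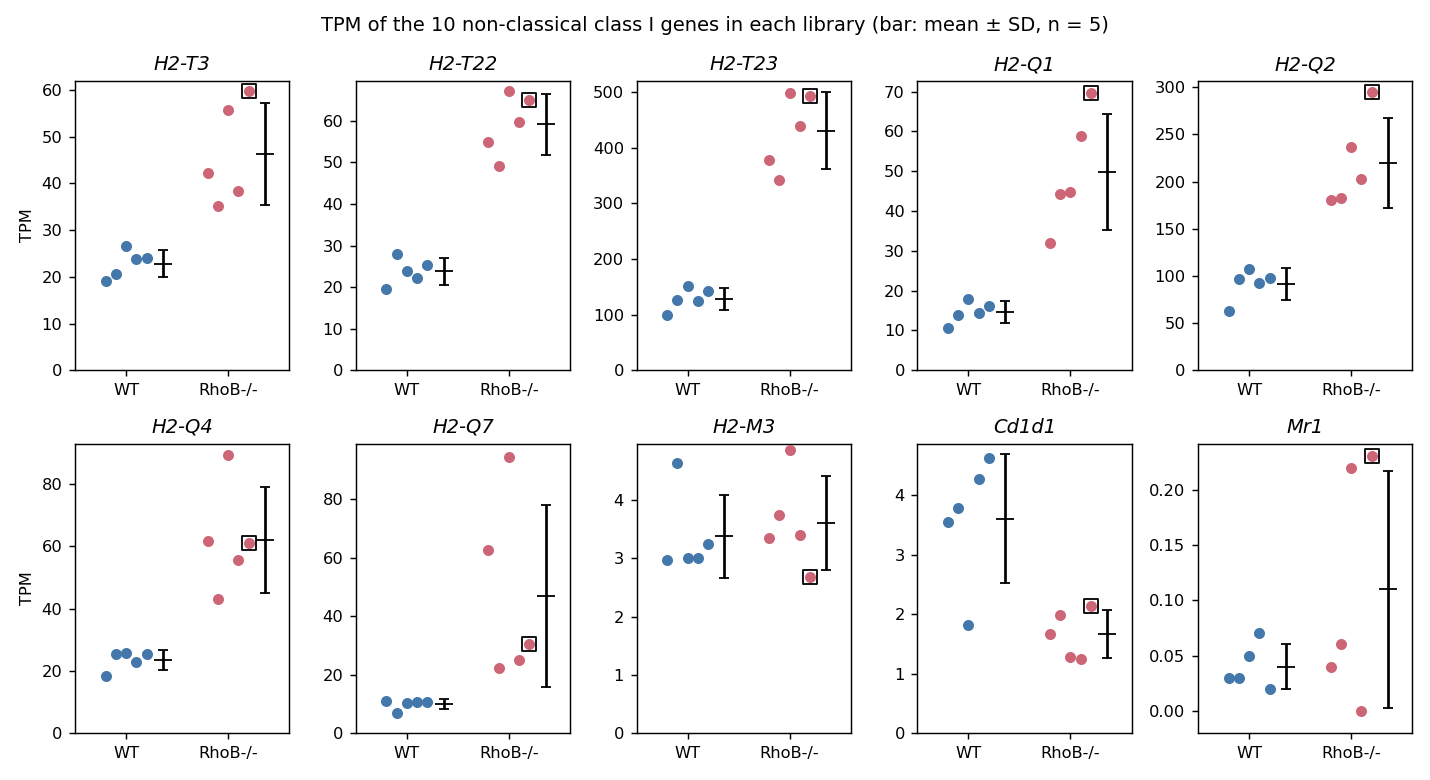
TPM of each of the 10 genes in every library (points, in replicate order), with the mean ± SD (n = 5) beside each genotype; a black square marks the library labelled RhoB-/- replicate 5. The groups are apart in the 7 H2-T and H2-Q panels and overlap in the panels of H2-M3, Cd1d1 and Mr1.

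H2-T23, the gene of Qa-1, had the highest level of the 10. Its TPM in WT libraries was 99.7, 126.4, 150.6, 123.5 and 141.7. In RhoB-/- libraries it was 377.8, 342.1, 498.6, 439.4 and 493.7. The lowest RhoB-/- library was therefore well above the highest WT library. Mean TPM went from 128.4 ± 19.5 to 430.3 ± 69.5 (SD, n = 5 each), a ratio of 3.35. H2-T23 differed by 1.74 on the log2 scale (SE 0.14, 95% confidence interval 1.42 to 2.05, limma adjusted p = 8.69e-06).

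H2-T22 (chr17:36037128-36042747, minus strand) had a TPM of 19.5, 28.0, 23.96, 22.1 and 25.4 in WT libraries. RhoB-/- libraries gave 54.8, 49.1, 67.2, 59.6 and 64.9. These groups did not overlap, and the RhoB-/- values were the least scattered of the 7 relative to their mean, at 59.1 ± 7.38 against 23.8 ± 3.23 (SD, n = 5 each). H2-T22 was 2.49-fold higher by mean TPM, or 1.28 on the log2 scale (SE 0.12, interval 1.01 to 1.54, limma adjusted p = 3.12e-05). Its near-identical neighbour H2-T10 was low, at 0.33 to 0.79 TPM in WT and 1.18 to 2.97 TPM in RhoB-/- libraries, and was also called higher (log2 fold change 0.89, limma adjusted p = 0.0116). Only 0.931% of the 150-base windows of the H2-T22 transcript occur unchanged in another gene. Windows that differ by a few letters were not counted, so the exchange of reads between the copies was not measured. Summing the copies before the fit gave 1.29 for H2-T22.

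H2-T3, the gene of the thymus leukaemia antigen, had WT values of 19.2, 20.6, 26.6, 23.8 and 24.1 TPM. The RhoB-/- values were 42.1, 35.3, 55.8, 38.5 and 59.9 TPM. No library of one group reached the range of the other, although RhoB-/- replicate 2 came near it. The mean went from 22.85 ± 2.95 to 46.3 ± 10.9 TPM (SD, n = 5 each), a ratio of 2.03 and a log2 fold change of 0.97 (SE 0.16, interval 0.63 to 1.31, limma adjusted p = 0.00159). This was the smallest log2 fold change among the 7 genes, and its interval did not overlap that of H2-T23, although the difference between the genes was not tested.

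H2-Q2 was the second most abundant of the 10 genes. Its TPM was 62.4, 97.0, 107.3, 92.6 and 97.7 in WT libraries. It was 180.7, 182.2, 236.7, 202.2 and 294.9 in RhoB-/- libraries, with the highest value in the library labelled RhoB-/- replicate 5. The groups were apart, and the means of 91.4 ± 17.1 and 219.3 ± 47.9 TPM (SD, n = 5 each) gave a ratio of 2.40. H2-Q2 changed by 1.25 on the log2 scale (SE 0.17, interval 0.87 to 1.63, limma adjusted p = 0.000533), and by 1.14 without that library. The promoter stretch shown above for H2-Q2 held no match to the interferon or X box letters.

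H2-Q1 had a TPM of 10.50, 14.0, 17.96, 14.3 and 16.2 in WT libraries. Its RhoB-/- values were 32.1, 44.2, 44.8, 58.7 and 69.7 TPM, all above the WT range. The mean was 14.6 ± 2.79 in WT and 49.9 ± 14.5 in RhoB-/- IECs (SD, n = 5 each), a ratio of 3.43. H2-Q1 rose by 1.68 on the log2 scale (SE 0.20, interval 1.25 to 2.11, limma adjusted p = 0.000173). Among 150-base windows of its transcript, 4.64% occur unchanged in other genes, most of them in H2-Q2, so part of its reads could have been assigned to either gene.

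H2-Q4 had WT values of 18.25, 25.4, 25.8, 22.9 and 25.25 TPM. In RhoB-/- libraries its TPM was 61.6, 42.9, 89.4, 55.55 and 61.1, with replicate 3 highest. All 5 exceeded the WT libraries. Mean TPM was 23.5 ± 3.15 in WT and 62.1 ± 17.0 in RhoB-/- IECs (SD, n = 5 each). H2-Q4 gave a ratio of 2.64 and a log2 fold change of 1.33 (SE 0.17, interval 0.96 to 1.71, limma adjusted p = 0.000348).

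H2-Q7, the gene of Qa-2, stood apart from the others in its spread. Its WT values were 11.1, 6.83, 10.08, 10.57 and 10.50 TPM. Its RhoB-/- values were 62.7, 22.1, 94.6, 24.8 and 30.4 TPM, so that replicates 1 and 3 were more than 2-fold above the other 3 libraries. The groups still did not overlap. The mean went from 9.81 ± 1.70 to 46.9 ± 31.2 TPM (SD, n = 5 each), a ratio of 4.78, and the log2 fold change was 1.94 (SE 0.35, interval 1.18 to 2.69, limma adjusted p = 0.0030). Without RhoB-/- replicates 1 and 3 together (a setting added once the values were known) the log2 fold change fell to 1.31 with a limma adjusted p of 0.000998.

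The near-identical copy H2-Q6 followed the same order of libraries within the RhoB-/- group, though not within WT. It had 4.25, 3.56, 7.92, 5.80 and 8.01 TPM in WT and 29.5, 13.4, 42.4, 18.9 and 23.5 TPM in RhoB-/- libraries. RhoB-/- replicates 3 and 1 were again the highest and replicate 2 the lowest. H2-Q6 differed by 1.89 on the log2 scale (SE 0.28, limma adjusted p = 0.000965). Of the 150-base windows of the H2-Q7 transcript, 8.44% also occur in H2-Q6, so part of the reads cannot be assigned to one of the pair, and summing both gave 1.98 for H2-Q7. H2-Q8 and H2-Q9, the other close copies, added nothing to this sum, and how reads were split among the copies is not stated.

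The RhoB-/- libraries with the most H2-Q7 also had the most MHC class II RNA, a comparison chosen after the values were seen. H2-Ab1, the beta chain of the class II molecule I-A, had 279.9 and 409.6 TPM in RhoB-/- replicates 1 and 3. It had 12.1, 20.02 and 78.5 TPM in replicates 2, 4 and 5 and 5.49 to 11.25 TPM in WT libraries. H2-Q7 in replicates 2, 4 and 5 was above the WT range as well, at class II levels close to WT in replicate 2. H2-Q4 was also highest in replicates 3 and 1, with replicate 5 next and close to replicate 1. The other 5 genes that rose were ordered differently: H2-T23 was 377.8 TPM in replicate 1 and 439.4 TPM in replicate 4, and H2-Q1 was lowest of the RhoB-/- libraries in replicate 1.

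**Figure D3:**
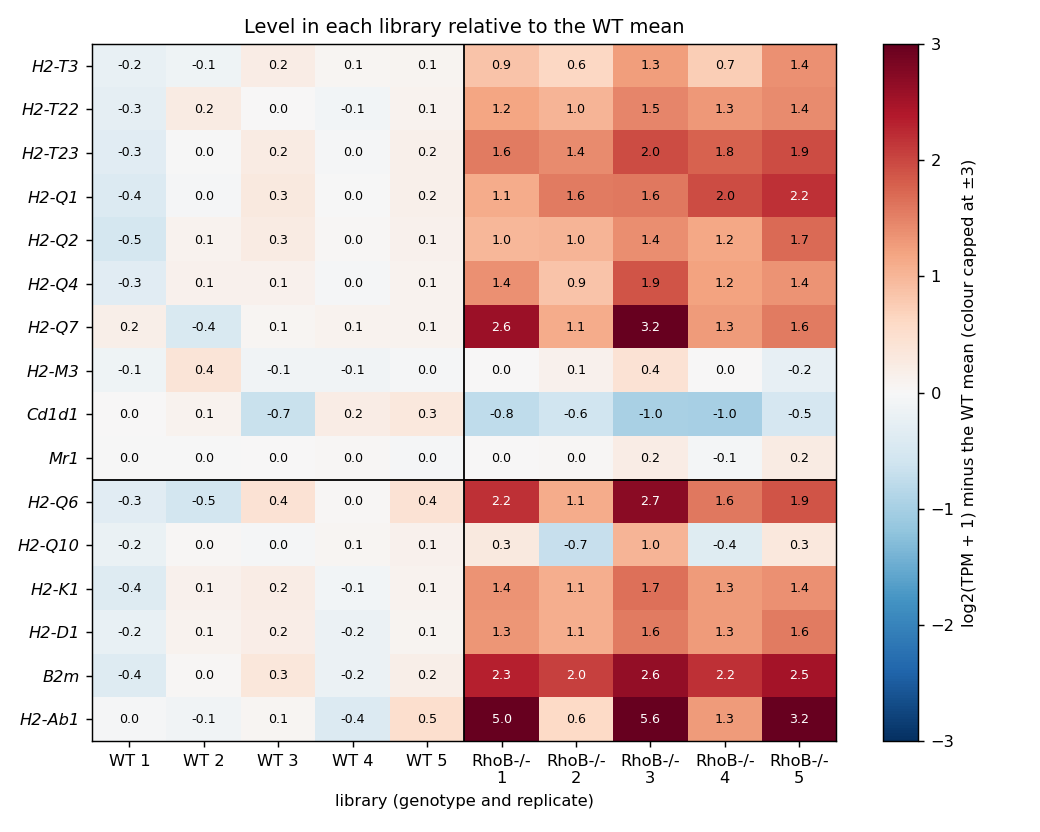
Heat map of log2(TPM + 1) in each library (columns) minus the WT mean of the same gene (rows), with red above and blue below the WT mean; the 10 genes are above the line and H2-Q6, H2-Q10, H2-K1, H2-D1, B2m and H2-Ab1 below it. H2-Q7 reaches 2.58 and 3.16 in RhoB-/- replicates 1 and 3, where H2-Ab1 reaches 5.02 and 5.57, while H2-T23 stays between 1.42 and 1.96 in all 5 RhoB-/- libraries.

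H2-M3 had a TPM of 2.97, 4.64, 3.01, 3.01 and 3.25 in WT libraries. In RhoB-/- libraries its TPM was 3.35, 3.75, 4.86, 3.40 and 2.68. The ranges covered each other almost completely, with means of 3.38 ± 0.715 and 3.61 ± 0.800 TPM (SD, n = 5 each). The log2 fold change was 0.07 (SE 0.15, limma adjusted p = 0.764). Its interval of -0.26 to 0.41 lies below the lower bound of each of the 7 genes that rose. The promoter of H2-M3 printed above carries the same 3 kinds of element (TTTCACTT, TGATGAC and ATTGG) as those of H2-Q4 and H2-Q7. It lacks the GGGATTCCC match of H2-Q7, and whether any of these matches bears on the RNA levels was not tested.

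Cd1d1, the gene of the lipid-presenting molecule CD1d, lies on chromosome 3 (chr3:86995834-86999441, minus strand) and went the other way. It had 3.55, 3.79, 1.81, 4.27 and 4.62 TPM in WT libraries and 1.66, 1.98, 1.28, 1.24 and 2.14 TPM in RhoB-/- libraries. WT replicate 3 fell within the RhoB-/- range, so the groups overlapped, whereas 8.55% of tested genes had every RhoB-/- library below every WT library. Mean TPM was 3.61 ± 1.09 in WT and 1.66 ± 0.404 in RhoB-/- IECs (SD, n = 5 each), a ratio of 0.46. Cd1d1 changed by -0.77 on the log2 scale (SE 0.20, interval -1.20 to -0.34, limma adjusted p = 0.0191), and 13.5% of tested genes were called lower. The call was lost without WT replicate 4 (limma adjusted p = 0.0536), without RhoB-/- replicates 1 and 3 together (0.0615) and when no filter on low values was applied (0.0529). Its copy Cd1d2 was at or near 0 in all libraries (mean 0.036 TPM in WT and 0 in RhoB-/-).

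Mr1 (chr1:155127277-155146814, minus strand) was near the limit of the table's 2 decimals. Its TPM was 0.03, 0.03, 0.05, 0.07 and 0.02 in WT and 0.04, 0.06, 0.22, 0.00 and 0.23 in RhoB-/- libraries. The groups overlapped. Mr1 did not pass the filter and was compared by an exact permutation test (two-sided p = 0.294, where the smallest p for 5 against 5 is 0.00794). At such values and unknown depth, no difference was detectable.

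Ordered by median TPM in WT IECs, the genes ran from H2-T23 (126.4) and H2-Q2 (97.0) through H2-Q4 (25.25), H2-T22 (23.96), H2-T3 (23.8), H2-Q1 (14.3) and H2-Q7 (10.50) to Cd1d1 (3.79), H2-M3 (3.01) and Mr1 (0.03). H2-T23 overlapped H2-Q2 in range, H2-Q4, H2-T22 and H2-T3 overlapped as neighbours, and so did H2-Q1 with H2-Q7 and Cd1d1 with H2-M3. In RhoB-/- IECs H2-T23 (median 439.4) no longer overlapped H2-Q2 (202.2). The 5 genes from H2-Q4 (61.1) to H2-Q7 (30.4) each overlapped the next, and H2-M3 (3.40) stood above Cd1d1 (1.66) with no overlap.

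Summed over all 10 genes, TPM was 247 to 367 in WT and 724 to 1094 in RhoB-/- libraries. H2-T23 made up 38.7% to 41.0% of this sum in WT and 45.6% to 49.7% in RhoB-/- libraries. As a percentage of the summed TPM of H2-K1 and H2-D1, the 10 genes came to 25.0 to 28.7 in WT and 26.9 to 33.2 in RhoB-/- libraries. The non-classical sum thus rose beside the classical one, and the ranges of this percentage overlapped.

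**Figure D4:**
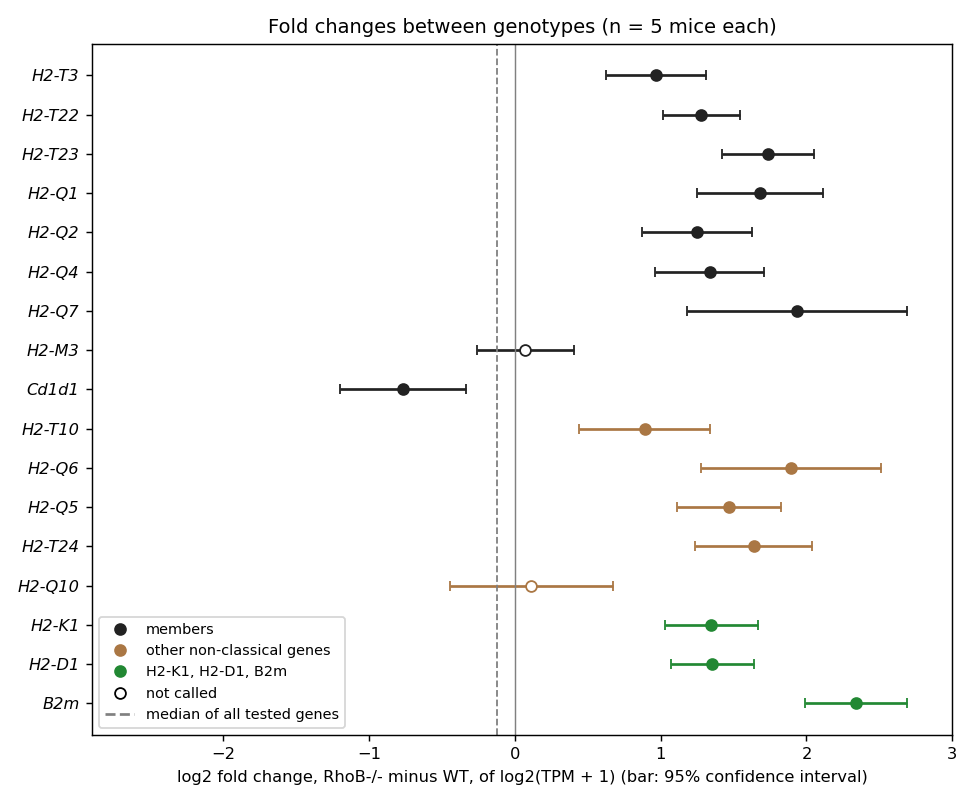
Log2 fold changes (RhoB-/- minus WT, log2(TPM + 1) scale) with 95% confidence intervals for the 9 tested genes (black), 5 other non-classical genes (brown) and H2-K1, H2-D1 and B2m (green); open circles were not called and the dashed line is the median of all tested genes, -0.13. The 7 T-region and Q-region genes lie between 0.97 and 1.94, H2-M3 at 0.07 and Cd1d1 at -0.77.

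Leaving out the library labelled RhoB-/- replicate 5 kept the direction of all 9 tested genes and every call. The log2 fold changes of H2-T3, H2-T22 and H2-T23 were then 0.87, 1.24 and 1.68. Those of H2-Q1, H2-Q2, H2-Q4 and H2-Q7 were 1.55, 1.14, 1.33 and 2.03. H2-M3 was at 0.15 (not called) and Cd1d1 at -0.83 (limma adjusted p = 0.0264). That library had the highest TPM of the 10 for H2-T3, H2-Q1 and H2-Q2 while it also held Rhob RNA.

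In the classical pathway, H2-K1, H2-D1 and B2m were higher by 1.35, 1.36 and 2.34 on the log2 scale (limma adjusted p = 9.46e-05, 3.64e-05 and 1.69e-06). Of 11 genes for classical class I and peptide loading, 7 were called higher and none lower, with a median of 1.08. Tap1 and Tap2, the peptide transporter, rose by 2.27 and 1.49, whereas the chaperones Calr, Canx and Pdia3 (0.22, 0.10 and 0.04) were not called, nor was the trimming enzyme Erap1 (0.20), all 4 named after their values were seen. Of the 29 other non-classical and MHC-like genes in the table, 13 were tested, with a median of 0.11. H2-Q5, H2-T24, H2-Q6, H2-T10 and H2-Bl were called higher, and Hfe, Azgp1 and Raet1e lower, the last 3 of which lie outside the MHC, and H2-Bl, Azgp1, Raet1e and H2-Q10 were picked after their values were seen. H2-Bl lost its call in 9 of 19 alternatives. H2-Q10, which encodes a secreted molecule best known from liver, was not called (log2 fold change 0.11, interval -0.45 to 0.67), with 7.14 to 25.6 TPM in RhoB-/- and 10.52 to 13.4 TPM in WT libraries.

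Among 16 regulators of class I genes, 6 were called higher and none lower, and the median was 0.03, beside -0.13 for all tested genes. Nlrc5, the class I transactivator, had 0.60 to 1.56 TPM in WT and 10.8 to 22.35 TPM in RhoB-/- libraries, a log2 fold change of 3.10. Irf9 and Irf7, which act downstream of interferon receptors, rose by 1.55 and 3.05, and Stat2 and Irf1 were called as well. The RFX and NF-Y subunits, Creb1, Rela and Nfkb1 lay between -0.37 and 0.04 and none of them was called. For CD1d lipid loading and trafficking, 12 of 13 listed genes were tested, with a median of 0.03, and Ctss, Ctsl and Ap3s1 were higher (0.88, 0.61 and 0.44).

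Receptors of these ligands and markers of other cells were examined in the same libraries. Of 16 receptor genes present, 6 were tested, and Cd8a, Trgc2, Lilrb4a and Cd160 were called higher (1.10, 0.78, 0.91 and 0.58). Without RhoB-/- replicate 1, without the library labelled RhoB-/- replicate 5, or without RhoB-/- replicates 1 and 3 together, 2 receptor genes were called. Trav11 and Trav1, the variable segments of NKT and MAIT receptors, were listed at 0 in all 10 libraries. The constant segment Trac was itself low, at 0.36 to 3.79 TPM in WT and 3.01 to 3.60 TPM in RhoB-/- libraries. At unknown depth, these zeros cannot show whether such cells were absent. The 12 lymphocyte markers summed to 18.5 to 37.1 TPM in WT and 76.55 to 86.8 TPM in RhoB-/- libraries, and 9 of the 11 tested were called higher, with Gzma and Gzmb at 2.32 and 2.11. Of 7 myeloid markers 1 of 3 tested (Cd68) was higher, with overlapping sums of 16.8 to 29.1 and 22.3 to 40.7 TPM. The myeloid count was 2 without RhoB-/- replicate 2, with no filter, with quantile normalization, with libraries centred on their median deviation and with the replicate block. At a mean TPM of at least 5 it was 0. Of 7 stromal and endothelial markers 1 of 2 tested (Dcn) was higher, with sums of 3.99 to 5.06 and 6.25 to 36.3 TPM. No B and plasma cell marker passed the filter, and their sums were 0.18 to 0.89 and 0.93 to 11.4 TPM, with the highest in the library labelled RhoB-/- replicate 5. Of the epithelial markers, 3 of 8 (Krt20, Vil1 and Cdx2) were higher, with Cdx2 close to the threshold (limma adjusted p = 0.0447). This count was 5 without RhoB-/- replicate 2, 6 with recentring (each library centred on its median deviation) and 2 to 4 in the other fits. H2-T23, at 99.7 to 150.6 TPM in WT and 342.1 to 498.6 TPM in RhoB-/- libraries, was above the summed lymphocyte markers in both genotypes. H2-M3, Cd1d1 and Mr1 were below these sums in both. A marker sum does not give the share of a cell type, and the part of lymphocytes in the values of the 10 genes was not tested.

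The genes whose levels followed H2-T23 most closely over the 10 libraries, after the mean of each genotype was subtracted from log2(TPM + 1), were Pdcl3, Vdac3 and Fip1l1 (Pearson r = 0.981, 0.969 and 0.967). These points share library composition, and the values are a description.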

How the data were processed

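Libraries of colonic IEC RNA, 1 per mouse (5 WT, 5 RhoB-/-), were sequenced as paired ends. The study's methods name SeqPrep and Sickle for trimming, HISAT2 for alignment, StringTie for assembly and RSEM for quantification, and the submitters' processing notes name edgeR and GRCm38.p6. The deposited values are TPM as the authors gave them, with 2 decimals. TPM keeps no depth, so the counting error is unknown and no count test was run. TPM is relative within a library, so genes that take more of one library lower the rest.

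Groups and replicate numbers came from the sample labels. Genotypes were compared with limma 3.58.1 (R 4.3.3, trend) on log2(TPM + 1), over the 12870 genes whose mean TPM reached 1, with Benjamini-Hochberg adjustment over all of them at 0.05. The p-values measure the spread between mice. Mr1, below the filter, was compared by an exact permutation test. The fit was tested on simulated data. Positions are from GENCODE M21 on GRCm38, where 55141 of 55487 identifiers were found, and promoters from RefSeq on GRCm38.p6. Windows of 150 bases, a read length, were matched exactly against GENCODE transcripts. The 10 genes, the lists and the rules were chosen with earlier results of these data known. The text names the 10 genes, their near-identical copies, H2-K1, H2-D1, B2m, Rhob, at most 4 genes of each list with the smallest adjusted p and 3 genes most like the most abundant of the 10, and any other gene was chosen after its values were seen. Alternatives were another pseudocount, filters, scalings, a replicate block, no trend, copies summed, the study's thresholds and each library left out. Some genes of the lists are not reported here.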

Additional observations from a re-analysis of the deposited data

Results flagged for a closer look

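H2-Q7 in WT replicate 2 had a TPM of 6.83, far below the other 4 WT libraries at 10.08 to 11.1, and passed Dixon's 95% limit for a sample apart from its group. H2-M3 in the same library had a TPM of 4.64 against 2.97 to 3.25 in the other WT libraries and passed the same limit. In all, 38 groups of 5 were screened and 2 passed, where chance gives about 2. Without WT replicate 2 the log2 fold change of H2-Q7 was 1.82 (limma adjusted p = 0.0105) and that of H2-M3 was 0.17 (limma adjusted p = 0.454).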

How the results depend on the processing

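The 7 genes called higher (H2-T3, H2-T22, H2-T23, H2-Q1, H2-Q2, H2-Q4 and H2-Q7) passed in each of 20 other fits, and their log2 fold changes ranged from 0.87 (H2-T3) to 2.14 (H2-Q7). The count of genes called lower, 1 (Cd1d1), was 0 with no filter and without RhoB-/- replicates 1 and 3 together. It was also 0 at a mean TPM of at least 5, which Cd1d1 does not reach, and 0 to 1 over the libraries left out in turn. H2-M3 lay between -0.03 and 0.26 in 19 fits and was never called. Over all genes, against 995 higher and 1734 lower, calls ranged from 719 (without RhoB-/- replicate 5) to 2010 higher (recentring) and from 853 (without WT replicate 4) to 3536 lower (without mitochondrial genes), and quantile normalization gave 1587 higher. Deviations of mice with the same replicate number correlated at -0.09 to 0.07, so the numbers do not pair them. With the replicate block 7 of the 10 genes were higher and 1 lower, as without it, and 836 genes in all were higher and 1059 lower, against 995 and 1734. Depth is unknown, which limits H2-M3, Cd1d1 and Mr1 most.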
